A study of Homo sapiens with 12 samples.

Results

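The genes of the mitochondrial ribosomal proteins (MRP genes) were examined in TIGK cells, which are human gingival keratinocytes of a single line carrying hTERT, with and without L-arginine (Arg) at high glucose. They were the protein-coding genes of the deposited count table whose symbols begin with MRPL or MRPS and a number, 78 of 58735 genes, of which 49 are named for the large subunit (MRPL) and 29 for the small subunit (MRPS). The study had 4 groups of 3 libraries (A, B, and C): control and Arg at 24 h, and control and Arg at 48 h. All 12 libraries came from cells in 48 mM glucose, the Arg groups received 500 μM Arg, and the controls were kept for the same times in the Arg-free base medium. All groups share the hTERT line, the glucose level, and the medium, so the controls are high-glucose cultures without Arg and not cells in usual medium. The methods name A, B, and C as replicates of cells treated in plate wells and do not say whether they were independent cultures, so the p-values measure the spread between these libraries, which may be technical.

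The mitochondrial ribosome translates the mRNAs of the mitochondrial genome, which encode core subunits of the respiratory chain and ATP synthase. Its rRNAs are transcribed from the mitochondrial genome, whereas all of its proteins are encoded in the nucleus, made in the cytosol, and imported. Some of these proteins descend from bacterial ribosomal proteins, and others are found only in mitochondrial ribosomes. Gene names and structure do not always match: the products of MRPS30 and MRPS18A sit in the large subunit, and that of MRPS36 belongs to the α-ketoglutarate dehydrogenase complex rather than to the ribosome.

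The libraries held between 16542243 and 19040964 counts, and the MRP genes took between 0.545% and 0.683% of them. All 78 passed edgeR's filter on low counts in every comparison. The 10 keratinocyte markers summed to between 43792 and 55924 CPM (counts scaled to library size, here after TMM scaling) in each library. The sums of the fibroblast, melanocyte, endothelial, and leukocyte markers were at most 102, 30.6, 6.41, and 3.99 CPM. Control library B at 48 h stood apart from libraries A and C, with a chi-square per degree of freedom of 20.9 and 23.9, against at most 12.5 for the other pairs of replicates. Control library B at 24 h also differed more from A and C (12.3 and 12.5) than these did from each other (6.54). The MRP genes had a median deviation from their group mean of -0.08 on the log2 scale in control B at 48 h and of -0.09 in control B at 24 h.

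Within the family, levels per length of exon differed widely. MRPS34, a protein specific to the mitochondrial small subunit, had the highest level, with a mean over the 12 libraries of 140 RPKM (range 110 to 167; RPKM is CPM per kilobase of exon). It was followed by MRPL15 (115 RPKM) and MRPL3 (108 RPKM), which are large-subunit proteins with bacterial homologues, and by MRPL51 (90.3 RPKM). After MRPS34, the highest small-subunit levels were those of MRPS18B at 71.6 RPKM and MRPS15 at 62.1 RPKM. The median level was 31.7 RPKM for the MRPL genes and 20.8 RPKM for the MRPS genes. Neighbours in this order were mostly not distinguishable, since in 75 of 77 neighbouring pairs the ranges over the 12 libraries overlapped.

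The lowest levels belonged to MRPL38 (0.324 RPKM), MRPS24 (0.910 RPKM), MRPL46 (1.69 RPKM), MRPL53 (1.93 RPKM), MRPS17 (3.54 RPKM), and MRPS25 (4.26 RPKM). MRPL38 had only 257 counts over the 12 libraries and as few as 5 in a library, so its fold changes are imprecise. MRPS17 and MRPL53 overlap NIPSNAP2 and CCDC142 on the same strand, and 12 of the 78 genes overlap a protein-coding gene with counts on their own strand. Since the strand setting of the counting is not given in the sources used here, values of overlapping genes are uncertain. The 75 pseudogenes that carry an MRP name together had 875 counts, 0.0662% of the counts of the genes and pseudogenes combined.

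**Figure D1:**
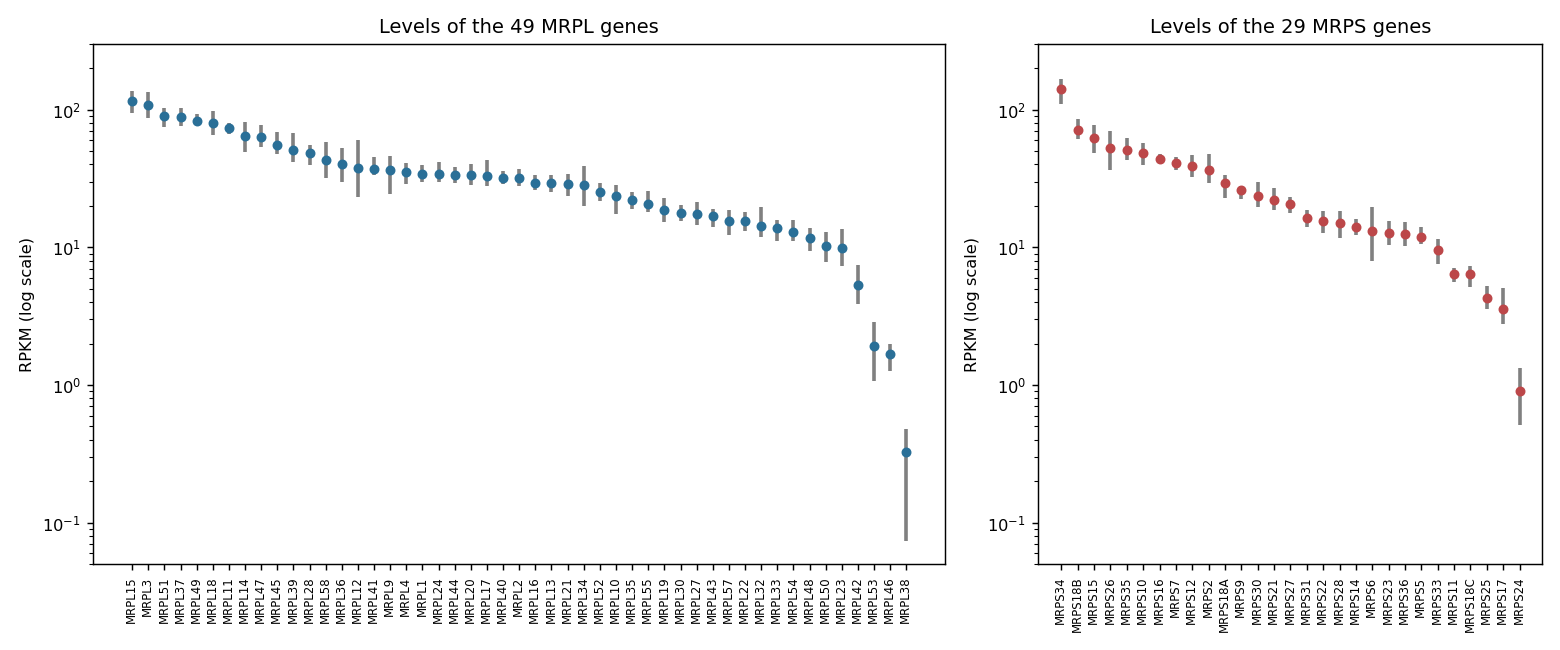
Level of each MRPL gene (left) and MRPS gene (right) in RPKM on a log axis; points are means over the 12 libraries and grey bars span the lowest to the highest library. Most genes lie within a continuous slope, and MRPL38, MRPL46, MRPL53, and MRPS24 lie at or below 1.93 RPKM.

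The summed level of the family was lower at 48 h than at 24 h, in control and in Arg, and differed less between Arg and control. The 49 MRPL genes summed to 4363 ± 254 CPM (SD, n = 3) in the control and 4188 ± 91.3 CPM with Arg at 24 h, and to 3678 ± 161 CPM and 3556 ± 49.0 CPM at 48 h. For the 29 MRPS genes, the sums were 2380 ± 120 and 2241 ± 67.4 CPM at 24 h, and 2020 ± 136 and 1914 ± 50.8 CPM at 48 h. Between 24 and 48 h, the MRPL sum was thus 15.7% lower in the control and 15.1% lower with Arg, and the MRPS sum 15.1% and 14.6% lower, without overlap of the libraries. Arg and control libraries overlapped in both sums at both times, in each case through control library B alone. Without it, all Arg libraries lay below the controls, and the difference of the MRPL sum was -6.91% at 24 h and -5.70% at 48 h, against -4.01% and -3.32% with it. That of the MRPS sum was -8.41% and -8.74%, against -5.84% and -5.20%. The ratio of the MRPL sum to the MRPS sum stayed between 1.79 and 1.88 in the 12 libraries. Before TMM scaling, all MRP genes together took a mean of 0.658% of the counts at 24 h and 0.581% at 48 h in the control. With Arg, they took 0.630% and 0.558%. The TMM factors lay between 0.967 and 0.996 at 24 h and between 1.02 and 1.03 at 48 h, so the scaling adds to the fall of the sums. These values are shares of the RNA of a culture, in which fewer cells of a type and less RNA per cell cannot be told apart. Time cannot be told apart from anything else that differed between the 24 h and 48 h harvests.

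**Figure D2:**
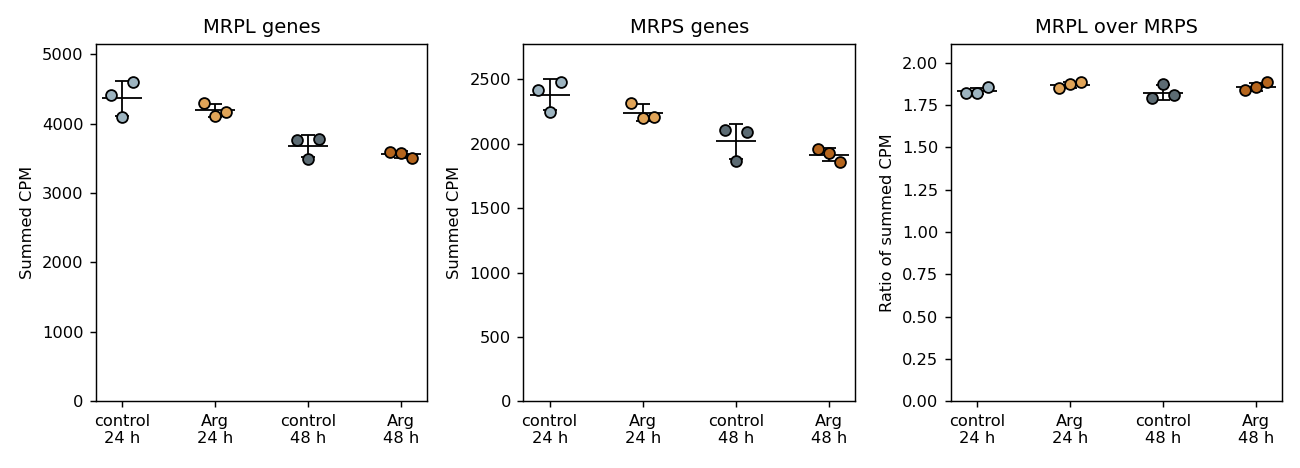
Summed CPM of the MRPL genes (left) and MRPS genes (middle) and their ratio (right) in the 4 groups; points are libraries A, B, and C from left to right, and bars are the mean ± SD of 3 libraries. Every 48 h library lies below every 24 h library of the same treatment in both sums, and the ratio lies between 1.79 and 1.88 in all libraries.

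To ask whether Arg changed the family, Arg and control libraries were compared at 24 h. MRPS6 and MRPL42 fell, no MRP gene rose, and the other 76 did not pass the test. With edgeR's quasi-likelihood test at an adjusted p under 0.05, the share of all 14279 tested genes called lower was 3.84%, and 2.79% were called higher. The median log2 fold change was -0.08 for the MRPL genes and -0.10 for the MRPS genes, and 0.0030 for all tested genes. Lower values were found for 54 of the 78 genes. With a correction for exonic length, the MRPL and MRPS medians were -0.06 and -0.06. At an unadjusted p under 0.05, 15 MRP genes were lower and 1, MRPL55, was higher, where 11.9% and 10.8% of all tested genes were. All 3 Arg libraries lay below all 3 controls for 15 MRP genes, against 13.4% of all tested genes.

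MRPS6, a small-subunit protein with a bacterial homologue, lies on chromosome 21 (chr21:34073224-34143034, plus strand, GRCh38). It was at 84.6, 66.4, and 81.6 CPM in control libraries A, B, and C at 24 h, and at 63.9, 50.7, and 51.1 CPM with Arg. All Arg libraries lay below all control libraries, and the log2 fold change was -0.49 (SE 0.11, adjusted p = 0.0130 by edgeR). The interval of MRPS6 also holds SLC5A3, the gene of a sodium-coupled myo-inositol transporter, on the same strand, which had 17320 counts in all, against 12236 for MRPS6. SLC5A3 fell as well, by 0.53 on the log2 scale (adjusted p = 0.00458), from between 102 and 112 CPM in the controls to between 62.3 and 84.9 CPM with Arg. Whether reads of SLC5A3 contributed to the counts of MRPS6 was not tested.

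MRPL42, a large-subunit protein without a bacterial homologue, lies on chromosome 12 (chr12:93467488-93516213, plus strand). Its level was 117, 106, and 122 CPM in the controls and 101, 74.7, and 78.1 CPM with Arg, with Arg library A nearest to the controls. The log2 fold change was -0.45 (SE 0.11, adjusted p = 0.0168), without overlap of the groups. Both calls rested on single libraries. Without control A, control C, Arg B, or Arg C neither gene passed, with adjusted p up to 0.108 for MRPL42 and 0.0885 for MRPS6, and between 1.59% and 1.95% of all tested genes were called lower. Without Arg A, 2 MRP genes were called lower, and without control B 10 were, where 4.36% and 6.02% of all tested genes were. The next genes by p were MRPL39 (-0.29, adjusted p = 0.0864), MRPL36 (-0.26, adjusted p = 0.0882), MRPS25 (-0.29, adjusted p = 0.135), and MRPS26 (-0.24, adjusted p = 0.151). Among genes with higher values, those with the smallest p were MRPL55 (0.22, adjusted p = 0.201), MRPL49 (0.13, adjusted p = 0.325), MRPL53 (0.56, adjusted p = 0.326), and MRPS18C (0.16, adjusted p = 0.370).

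The promoters of the MRPS and MRPL genes with the smallest p at 24 h are given below to show how they differ in composition, from RefSeq (GRCh38.p14), as 250 bases before and 30 bases after the annotated start, read along the gene. Capitals mark letters that match GGGCGG (SP1) or AAGATGGC (YY1), on either strand; some SP1 matches overlap each other. Matches to CCGGAAGT (ETS), GCGCATGC (NRF1), CCAAT (NF-Y), and CACGTG (E-box) were also searched, and none was in these 4 windows.
MRPS6 (chr21:34073328-34073607, plus strand): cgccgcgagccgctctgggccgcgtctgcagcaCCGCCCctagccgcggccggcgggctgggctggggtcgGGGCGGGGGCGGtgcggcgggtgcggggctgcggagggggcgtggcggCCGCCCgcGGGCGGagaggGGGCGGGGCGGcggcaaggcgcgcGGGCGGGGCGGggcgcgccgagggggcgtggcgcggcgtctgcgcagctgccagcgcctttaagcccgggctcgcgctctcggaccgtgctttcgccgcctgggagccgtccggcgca
MRPS25 (chr3:15065286-15065565, minus strand): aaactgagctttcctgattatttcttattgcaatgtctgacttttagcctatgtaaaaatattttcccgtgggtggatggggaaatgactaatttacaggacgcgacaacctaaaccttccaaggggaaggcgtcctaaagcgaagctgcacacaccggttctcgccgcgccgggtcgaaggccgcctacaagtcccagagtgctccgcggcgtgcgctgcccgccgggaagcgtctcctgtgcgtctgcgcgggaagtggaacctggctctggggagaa
MRPL42 (chr12:93467264-93467543, plus strand): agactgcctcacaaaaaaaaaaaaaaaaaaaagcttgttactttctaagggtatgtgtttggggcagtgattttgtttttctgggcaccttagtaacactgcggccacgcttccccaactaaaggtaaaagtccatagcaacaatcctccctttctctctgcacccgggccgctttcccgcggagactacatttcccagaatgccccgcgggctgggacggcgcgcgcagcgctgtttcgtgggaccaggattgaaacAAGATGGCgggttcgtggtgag
MRPL39 (chr21:25607452-25607731, minus strand): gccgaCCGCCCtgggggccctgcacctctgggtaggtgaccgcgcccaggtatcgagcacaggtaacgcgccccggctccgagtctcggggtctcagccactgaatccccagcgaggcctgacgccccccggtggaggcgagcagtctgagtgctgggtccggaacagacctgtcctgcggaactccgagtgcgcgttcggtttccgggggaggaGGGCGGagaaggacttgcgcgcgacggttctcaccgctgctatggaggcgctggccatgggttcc
The MRPS6 window, with 83.9% G and C, held 9 matches to the SP1 letters, and that of MRPL39 held 2. The MRPL42 window, with 51.4% G and C, held a match to the YY1 letters that begins at base 9 after the start, and the MRPS25 window held none of the letters searched.

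A promoter was found in the RefSeq table for 69 of the 78 MRP genes. The YY1 letters were present in 17 of these 69 (24.6%), against 4.45% of promoters of tested genes and 2.53% of all 27305 promoters. The ETS letters were present in 15.9% of the MRP promoters, against 8.71% of those of the tested genes. The other shares lay nearer to those of the tested genes: 8.70% against 5.51% for NRF1, 8.70% against 9.91% for the E-box, 58.0% against 69.9% for SP1, and 29.0% against 36.1% for NF-Y. Of the 18 YY1 matches, 12 began within the 30 bases after the start, as did 53.0% of the 481 matches in promoters of tested genes, and 14 were on the strand of the gene. To show where these matches sit, the windows of the 5 genes that hold one and were lower at 48 h in both control and Arg (described below) are given with 8 bases on each side, read along the strand of the motif, with its letters in capitals.
MRPL20 (chr1:1407263-1407286, minus strand): acccgggcAAGATGGCagcggcgc
MRPL36 (chr5:1799857-1799880, plus strand): caggaaggAAGATGGCggcggggg
MRPL42 (chr12:93467514-93467537, plus strand): attgaaacAAGATGGCgggttcgt
MRPS12 (chr19:38930724-38930747, minus strand): cccggtccAAGATGGCtgcgtcca
MRPS30 (chr5:44808952-44808975, plus strand): cgcgggcaAAGATGGCggcggcca
The match lies after the start in MRPL20, MRPL42, and MRPS30, and before it, on the other strand, in MRPL36 and MRPS12. A match was present in 5 of 17 promoters of the genes lower at 48 h in both control and Arg, and in 8 of 33 promoters of the genes called in neither. These matches are a description of the letters and do not show that a factor binds there.

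At 48 h, no MRP gene was called in either direction by edgeR's quasi-likelihood test, where 0.117% of all 14562 tested genes were called lower and 0% higher. DESeq2 called 1 lower, MRPS6, beside 128 of all genes lower and 39 higher. When no genes of low counts were removed, edgeR called 3 lower (MRPS6, MRPL23, and MRPS33), beside 374 of all genes lower and 199 higher. At an unadjusted p under 0.05, 8 MRP genes were lower and 3 were higher, against 7.49% and 5.94% of all tested genes. The 3 Arg libraries lay below the 3 controls for 8 MRP genes, against 8.51% of all tested genes. The medians were -0.06 for the MRPL genes, -0.08 for the MRPS genes, and 0.0018 for all tested genes. With a correction for exonic length, the MRPL median was -0.01 and the MRPS median -0.05.

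MRPS6 again had the smallest p, with 57.0, 44.8, and 61.9 CPM in the controls and 37.9, 42.0, and 34.3 CPM with Arg. The groups did not overlap, but the log2 fold change of -0.52 (SE 0.12, adjusted p = 0.134) did not pass the test. The value of SLC5A3 was -0.23 on the log2 scale (adjusted p = 0.410). For MRPL23, a protein of the polypeptide exit tunnel, the values were 32.1, 25.3, and 32.1 CPM in the controls and 22.4, 21.9, and 23.1 CPM with Arg (log2 fold change -0.41, adjusted p = 0.176). Library B was the lowest control for both genes. The next lower values by p were those of MRPS33 (-0.32, adjusted p = 0.204), MRPL43 (-0.23, adjusted p = 0.299), MRPL34 (-0.29, adjusted p = 0.325), and MRPS10 (-0.16, adjusted p = 0.337).

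Values above the controls were found for MRPS18C and MRPS18A, which are paralogues: the product of MRPS18C sits in the small subunit and that of MRPS18A in the large subunit. MRPS18C was at 27.1, 25.2, and 25.7 CPM in the controls and at 31.7, 35.4, and 31.7 CPM with Arg (log2 fold change 0.34, adjusted p = 0.177). MRPS18A was at 33.4, 29.3, and 35.5 CPM in the controls and at 35.8, 41.1, and 42.4 CPM with Arg (0.28, adjusted p = 0.267). Neither gene overlapped between the groups, and neither passed the test. MRPS9 also lay above the controls, at 50.2, 51.3, and 50.3 CPM with Arg against 49.3, 46.8, and 47.9 CPM, and was not called. All 3 Arg libraries lay above all 3 controls for these 3 MRP genes and for 1246 of all 14562 tested genes. MRPL38, the gene with few counts, was at 1.18 (SE 0.52, adjusted p = 0.352). The third MRPS18 paralogue, MRPS18B, had a log2 fold change of -0.07 (adjusted p = 0.715).

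The count of calls at 48 h moved most with control library B. Without it, 14 MRP genes were called lower and 1, MRPS18C, higher, and 8.17% of all 14854 tested genes were called lower and 7.76% higher. The lower genes were then led by MRPS6 (log2 fold change -0.65, adjusted p = 1.77e-05), MRPL23 (-0.52, adjusted p = 0.000618), and MRPS33 (-0.40, adjusted p = 0.00150), and included MRPL42 (-0.28, adjusted p = 0.00813). In library B, mitochondrially encoded genes took 1.55% of the counts, against 0.906% in A and 0.707% in C, and the part of this difference in the result was not tested.

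The Arg effect did not differ detectably between the times. No MRP gene passed the interaction test (0.0132% of all 15148 tested genes did), and DESeq2 called none. At an unadjusted p under 0.05, 2 did, where 6.87% of all tested genes did. These were MRPL17 (interaction 0.35 on the log2 scale, SE 0.14, adjusted p = 0.626), a large-subunit protein with a bacterial homologue, and MRPS18A (0.32, SE 0.15, adjusted p = 0.708). MRPL17 was at 90.3, 76.9, and 97.9 CPM in the controls and 68.7, 78.0, and 80.5 CPM with Arg at 24 h, and at 63.6, 64.6, and 66.2 CPM and 78.9, 68.4, and 64.8 CPM at 48 h. The groups overlapped at both times. MRPS21 had the third smallest p, with an interaction of -0.30 (adjusted p = 0.777).

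**Figure D3:**
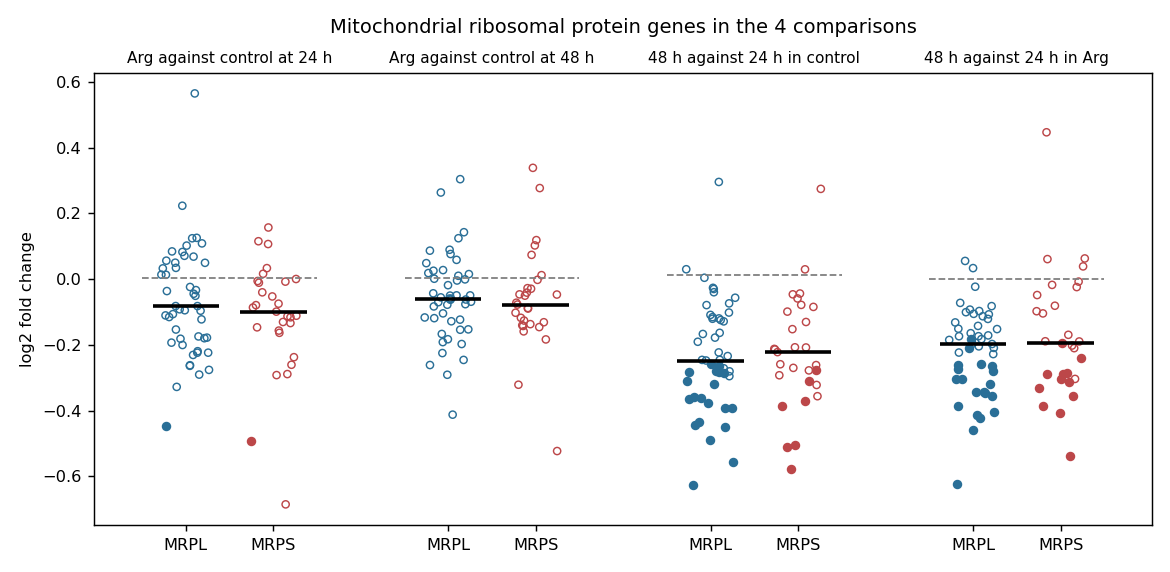
Log2 fold change of each MRPL gene (blue) and MRPS gene (red) in the 4 comparisons; filled points have an adjusted p under 0.05 in edgeR's quasi-likelihood test, black bars are medians of the genes, and dashed lines are medians of all tested genes. MRPL38, with 257 counts in all, is not drawn. The medians lie between -0.06 and -0.10 for Arg against control and between -0.20 and -0.25 for 48 h against 24 h.

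Between 24 and 48 h, MRP genes of both subunits fell and none rose. In the control, 27 fell (20 of 49 MRPL and 7 of 29 MRPS), against 10.04% of all 14449 tested genes called lower and 9.90% called higher. With Arg, 32 fell (20 MRPL and 12 MRPS), against 14.0% of all 14398 tested genes called lower and 14.3% called higher. The medians of the MRPL and MRPS genes were -0.25 and -0.22 in the control and -0.20 and -0.20 with Arg, and those of all tested genes were 0.01 and 0.00092. Lower values at 48 h were found for 73 of the 78 genes in the control and for 72 with Arg. All 3 libraries at 48 h lay below all 3 at 24 h for 43 MRP genes in the control, against 19.7% of all tested genes, and for 41 with Arg, against 21.2%.

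Markers of other cell types moved in the same comparisons. The summed fibroblast markers were at between 33.1 and 53.4 CPM in the control at 24 h and between 84.2 and 102 CPM at 48 h, and with Arg at between 29.6 and 40.8 and between 71.9 and 99.7 CPM. Of the 6, 3 could be tested, and COL1A1 and DCN rose in both comparisons. COL1A2, COL3A1, and PDGFRA were near 0, with means over the 12 libraries of 0.00927, 0.0647, and 0.0556 CPM. LUM had a mean of 1.29 CPM. Of the 4 endothelial markers, 2 could be tested, with KDR rising in both and VWF with Arg, from sums of at most 3.01 CPM at 24 h to at most 6.41 CPM at 48 h. Of the 10 keratinocyte markers, 3 rose and 2 fell in the control and 4 rose and 2 fell with Arg. Between Arg and control at 24 h, 1 of 3 tested fibroblast, 1 of 2 melanocyte, and 1 of 10 keratinocyte markers were called lower. The share of all tested genes called lower there was 3.84%. At 48 h, no marker was called between Arg and control. The part of these differences in the change of the MRP genes was not tested.

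The control and Arg comparisons share no library. The genes called lower in both numbered 19 (13 MRPL and 6 MRPS), which is 70.4% of those called in the control and 59.4% of those called with Arg, and 7.31% of all 14057 genes tested in both were called lower in both. These 19 genes were MRPL3, MRPL4, MRPL9, MRPL12, MRPL15, MRPL19, MRPL20, MRPL21, MRPL36, MRPL37, MRPL42, MRPL57, MRPL58, MRPS6, MRPS12, MRPS15, MRPS26, MRPS30, and MRPS34. A further 8 were called in the control alone and 13 with Arg alone, but no interaction passed the test, so these genes are not shown to differ between the treatments.

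**Figure D4:**
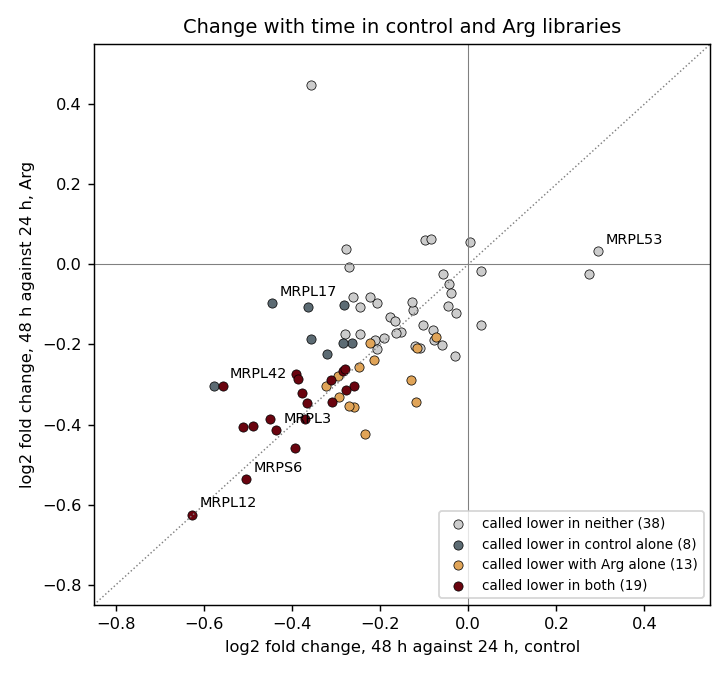
Log2 fold change of each MRP gene from 24 to 48 h in the control (x axis) and with Arg (y axis), coloured by the comparisons in which it was called lower; the dotted line marks equal change, and MRPL38 is not drawn. Most genes lie in the lower left quadrant, and 19 were called lower in both.

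MRPL12, the protein of the flexible stalk that recruits translation factors, fell most among the 19 genes called in both. It was at 55.6, 37.4, and 61.6 CPM in the control at 24 h and at 34.7, 26.4, and 38.9 CPM at 48 h, where control library B was the lowest at each time and the groups overlapped (log2 fold change -0.63, SE 0.18, adjusted p = 0.0278). With Arg, it went from 41.6, 43.6, and 43.7 CPM to 32.7, 23.8, and 26.8 CPM, without overlap (-0.62, SE 0.11, adjusted p = 0.000199). The other stalk proteins did not pass the test: MRPL10 had log2 fold changes of -0.28 and -0.17 in control and Arg, and MRPL11 of -0.06 and -0.02.

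Among the proteins around the peptidyl transferase centre, MRPL3 fell from 365, 315, and 355 CPM to 255, 234, and 274 CPM in the control (log2 fold change -0.44, SE 0.08, adjusted p = 0.00544) and from 364, 301, and 314 CPM to 240, 245, and 249 CPM with Arg (-0.41, SE 0.07, adjusted p = 0.000256). Every library at 48 h lay below every library at 24 h of its treatment. MRPL2 passed the test with Arg only (-0.21, adjusted p = 0.0424) and MRPL27 in the control only (-0.28, adjusted p = 0.0429), and MRPL16 passed in neither (-0.18 and -0.13).

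At the polypeptide exit tunnel, MRPL4 fell in both (-0.38 and -0.32), MRPL23 fell with Arg (-0.42, adjusted p = 0.00787), while its value in the control was -0.23 (adjusted p = 0.213), and MRPL22 and MRPL24 passed in neither. MRPL45, which anchors the ribosome at the inner membrane, fell in the control (-0.29, adjusted p = 0.0341) and was at -0.20 with Arg (adjusted p = 0.0595). MRPL58, a peptidyl-tRNA hydrolase of the large subunit that releases stalled chains, fell in both (-0.39 and -0.46). MRPL44, with a fold like that of RNase III, passed in neither (-0.17 and -0.14). MRPL36, a small zinc-binding protein of the large subunit, fell in both (-0.45 and -0.39), as did MRPL42 (-0.56, adjusted p = 0.00400, and -0.30). Of the other large-subunit genes with the smallest p, MRPL9 (-0.49 and -0.40), MRPL19 (-0.39 and -0.27), MRPL21 (-0.37 and -0.35), and MRPL37 (-0.26 and -0.30) fell in both. MRPL17 fell in the control (-0.44) and was at -0.10 with Arg (adjusted p = 0.455), and MRPL18 fell with Arg (-0.35) and was at -0.27 in the control (adjusted p = 0.0677).

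In the small subunit, MRPS12, at the decoding centre, fell by 0.28 in the control and 0.31 with Arg on the log2 scale. MRPS15, which binds the small rRNA, went from 216, 201, and 225 CPM to 174, 148, and 173 CPM in the control (log2 fold change -0.37, adjusted p = 0.0110) and from 197, 194, and 197 CPM to 160, 146, and 142 CPM with Arg (-0.39, adjusted p = 0.000322). MRPS6 fell in both (-0.50 and -0.54), and SLC5A3, which overlaps it, by 0.55 in the control (adjusted p = 0.0100), with -0.25 in Arg (adjusted p = 0.0592). Of the proteins without bacterial homologues, MRPS26 (-0.51 and -0.41) and MRPS34 (-0.31 and -0.29) fell in both, MRPS22 fell with Arg (-0.36, adjusted p = 0.00174; -0.26 in the control, adjusted p = 0.0593), and MRPS27 passed in neither. MRPS23 passed the test with Arg only (-0.33, adjusted p = 0.00452), and MRPS17 in the control only (-0.58, adjusted p = 0.0365). MRPS2 and MRPS18B passed the test with Arg only (-0.30 and -0.20). In the control, MRPS2 went from 118, 95.3, and 103 CPM to 88.3, 71.9, and 92.2 CPM. MRPS18B went there from 161, 141, and 147 CPM to 138, 115, and 132 CPM. For both, every control library at 48 h lay below every control library at 24 h. MRPS5, MRPS7, MRPS16, MRPS18C, and MRPS18A passed in neither comparison.

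Among the products whose names do not match their place, MRPS30, of the large subunit, fell in both (-0.39 and -0.29). MRPS18A, also of the large subunit, passed in neither. MRPS36, which is no ribosomal subunit, had values of -0.08 and 0.06 and passed in neither. When the genes were grouped by structure, 21 of 51 large-subunit and 6 of 26 small-subunit genes fell in the control, and 21 and 11 with Arg. Of the genes with a bacterial homologue, 18 of 48 fell in the control and 21 with Arg, and of the genes specific to mitochondria 9 of 29 and 11. The highest values at 48 h relative to 24 h belonged to MRPL53 (0.30, adjusted p = 0.570) and MRPS21 (0.27, adjusted p = 0.0971) in the control, and to MRPS24 (0.45, adjusted p = 0.344) with Arg, and none of these passed the test.

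**Figure D5:**
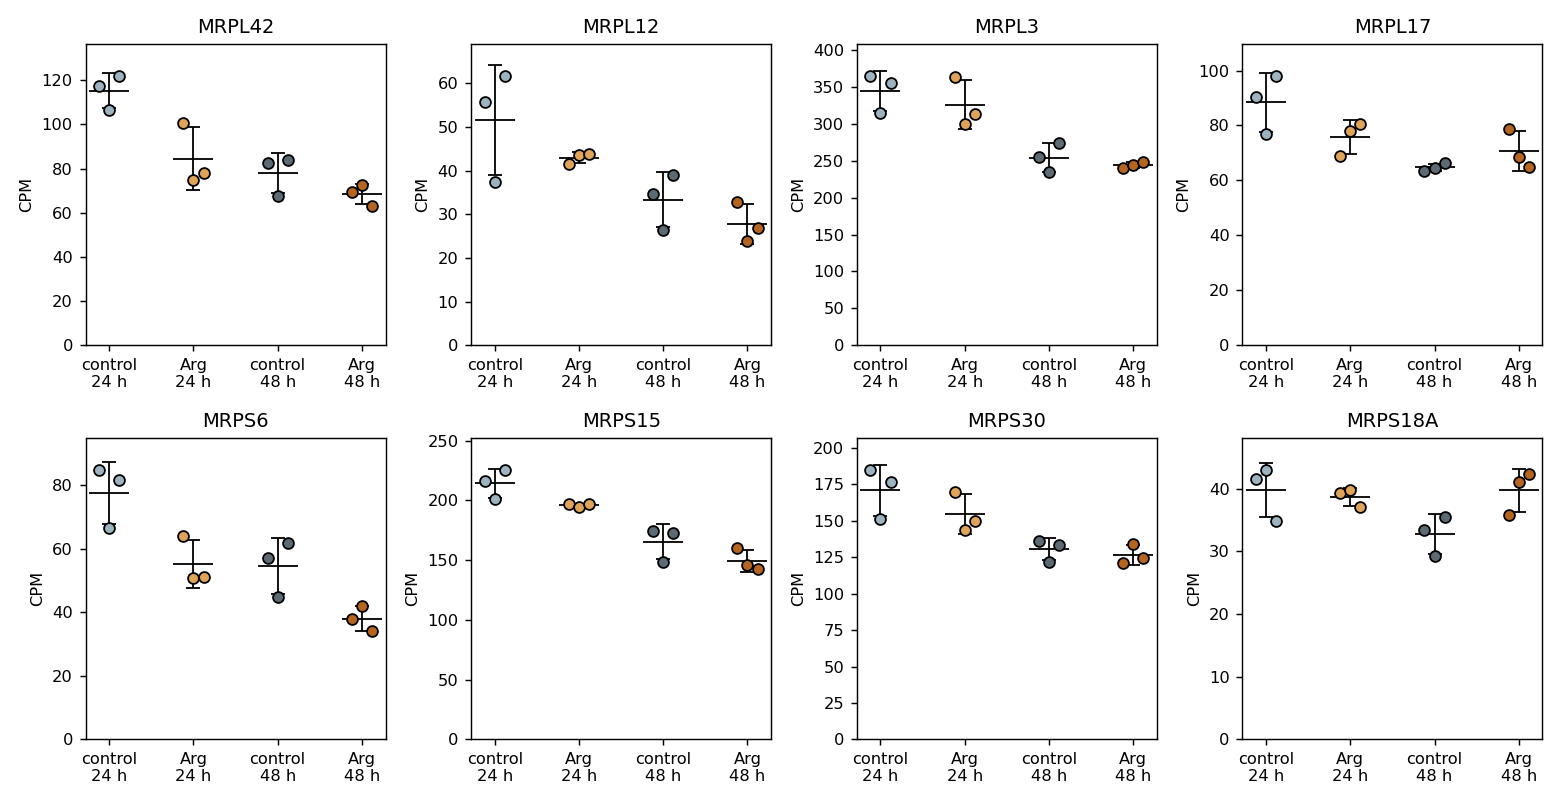
CPM of 8 MRP genes in the 4 groups; points are libraries A, B, and C from left to right, and bars are the mean ± SD of 3 libraries. MRPL42, MRPL12, MRPL3, MRPS6, MRPS15, and MRPS30 were called lower at 48 h in control and Arg, MRPL17 in the control alone, and MRPS18A in neither.

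The number of genes called with time in the control rested on single libraries. Without control A or control C at 24 h, 5 were called lower, which were MRPL3, MRPL4, MRPL9, MRPL19, and MRPL42, where 2.74% and 3.36% of all tested genes were called lower. Without control A at 48 h, 17 were, against 6.22% of all tested genes. Without control B at 48 h, 19 of the 27 were, against 8.60%, and MRPL12, MRPL27, MRPL39, MRPL45, MRPL47, MRPL57, MRPS12, and MRPS34 did not pass. With Arg, leaving out a library gave between 23 and 30 calls, against between 9.31% and 12.9% of all tested genes. Scaling to library size alone, under which the median of all tested genes was 0.07 in the control, gave 15 lower and 1 higher (MRPS21) in the control and 23 lower with Arg. The split of all tested genes called in the control was then 1845 higher and 1008 lower, against 1431 and 1451 with TMM scaling. With Arg, it was 2568 higher and 1453 lower, against 2060 and 2012. The MRP genes had a median exonic length of 2539 bases, against 4787 bases for all genes tested at 24 h. A correction for exonic length gave 23 lower calls in the control and 25 with Arg. Of all genes, 1594 and 1955 were then called lower and 1321 and 1811 higher. The MRPL and MRPS medians were -0.21 and -0.21 in the control and -0.13 and -0.13 with Arg.

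The other components of mitochondrial translation gave a mixed picture beside the MRP genes. Of 26 tested assembly and rRNA modification factors, none fell and 1 rose with Arg at 24 h: NGRN, a factor needed for the large rRNA (0.37, adjusted p = 0.0232). NGRN did not pass without control A, control C, Arg B, or Arg C (adjusted p up to 0.130). Between 24 and 48 h, 5 of them (19.2%) fell in the control and 8 (30.8%) with Arg, against the 10.04% and 14.0% of all tested genes, led in both by MRM1, a methyltransferase of the large rRNA (-0.87, adjusted p = 0.00707, and -0.76, adjusted p = 0.00114). The genes called translation factors here were a broad list that also held LRPPRC, SLIRP, MTPAP, OXA1L, and LETM1. Of its 19 tested genes, none passed with Arg at either time, whereas 3 (15.8%) fell with time in the control and 7 (36.8%) with Arg. These included TUFM, the mitochondrial elongation factor Tu (-0.24, adjusted p = 0.0426, and -0.43, adjusted p = 2.90e-05). In the control, TUFM did not pass without control A or C at 24 h or without any of the 3 controls at 48 h (adjusted p up to 0.161). Of the 5 tested ribosomal proteins under other names, 1 fell with time in the control and 2 with Arg. When control A or control C at 24 h was left out, only 1 assembly factor and 1 translation factor fell with time in the control. None of the proteins under other names did, and 2.74% and 3.36% of all tested genes were then called lower. Without Arg A or Arg B at 48 h, 3 of the 26 assembly factors fell with time in Arg, against 10.3% and 9.31% of all tested genes. Without Arg C at 48 h, 5 did, against 10.4%. Without control B at 48 h, 4 assembly factors and 2 translation factors (of 3) fell with time in the control, against 8.60% of all tested genes. For Arg against control at 48 h without that library, 3 assembly and 4 translation factors were called lower, and 1 of each was called higher. Of all tested genes, 8.17% were then called lower and 7.76% higher.

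The transcripts that the mitochondrial ribosome translates behaved otherwise. With Arg at 24 h, 12 of the 13 mitochondrially encoded mRNAs fell, with a median of -0.71, where the median of the MRP genes was -0.09. MT-ND1, a subunit of complex I, was at 349, 356, and 342 CPM in the controls and 179, 158, and 211 CPM with Arg (-0.93, SE 0.09, adjusted p = 8.71e-06), and MT-CO1, a subunit of complex IV, fell by 0.82 on the log2 scale (adjusted p = 2.96e-05). From 24 to 48 h with Arg, all 13 rose, with a median of 0.91, where the median of the MRP genes was -0.20. MT-ND1 was then at 358, 434, and 370 CPM (1.08, adjusted p = 7.53e-08). In the control, none of the 13 passed with time; MT-ND1 was at 247, 491, and 205 CPM at 48 h, where library B lay far above A and C. Without control B at 48 h, 10 of the 13 fell with time in the control (median -0.54, against -0.07 with it), and 12 rose with Arg at 48 h (median 0.69, against 0.28 with it).

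Both mitochondrial rRNAs fell with Arg at 24 h, as far as the poly(A)-selected libraries captured them. MT-RNR1, the rRNA of the small subunit, was at 466, 446, and 469 CPM in the controls and 262, 222, and 209 CPM with Arg (-0.997, SE 0.09, adjusted p = 2.33e-06), and MT-RNR2, that of the large subunit, fell by 0.81 (adjusted p = 4.27e-05). At 48 h, MT-RNR1 was at 249, 232, and 195 CPM in the controls and 192, 202, and 208 CPM with Arg (-0.17, adjusted p = 0.403). The 2 groups overlapped at 48 h and not at 24 h.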

How the data were processed

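Poly(A) RNA of 12 libraries (4 groups of 3) was sequenced by the study. Per the labels, the authors used fastp, STAR, and featureCounts with GRCh38/hg38, and deposited raw counts per gene. Tool versions, annotation release, and strand setting are not given in the sources used here. The MRP genes and the other gene lists were chosen with earlier results of these data known. All genes were filtered and TMM-scaled with edgeR 4.0.16 (limma 3.58.1, R 4.3.3) and tested with its quasi-likelihood test. Each comparison was fitted on its own 6 libraries, the interaction on all 12, and p-values were adjusted over all tested genes by Benjamini-Hochberg, with 0.05 as threshold. An exact permutation test of 3 against 3 libraries cannot go below 0.1 and was not used. Genes were named where they had the smallest p in a comparison, subunit, and direction (at most 8 past the threshold, otherwise 3), the 3 highest or lowest RPKM of a subunit, or a listed structural role. SLC5A3, MRM1, TUFM, and the short windows were chosen after their values were seen. Alternatives were DESeq2 1.42.0, other scalings and filters, a replicate block, corrections for exonic length and GC content, and leaving out each library. The sums and other lists without single libraries were added after seeing the data. The tests were also run on simulated counts with known changes. These changes were larger than the family medians given here, and no simulated library was an outlier, so the check does not cover such cases.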

Additional observations from a re-analysis of the deposited data

Results flagged for a closer look

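The effect of Arg on MT-RNR1, the rRNA of the mitochondrial small subunit, differed between 24 and 48 h by the interaction test of edgeR over all 12 libraries (difference of log2 fold changes 0.83, SE 0.13, adjusted p = 0.0229). Its log2 fold change with Arg was -0.997 at 24 h and -0.17 at 48 h. When single libraries were left out, the difference lay between 0.74 and 0.93, with adjusted p from 0.000938 to 0.178. It no longer passed without control A or C at 24 h, Arg B or C at 24 h, control C at 48 h, or any of the 3 Arg libraries at 48 h.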

How the results depend on the processing

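With 3 libraries a group and up to 19040964 counts a library, the spread between libraries limits these results. Over the alternatives to the counts of calls and to the subunit medians of the 4 comparisons between groups, 214 values stayed within 1.5 times the count or 1 SD of the library medians, 22 moved, and none reversed. The cause was not tested. For Arg at 24 h, leaving out genes that overlap another gene gave 0 calls because both called genes were among them, and leaving out single libraries gave 0 to 10. The only gene that overlaps MRPL42, RN7SL737P, had 0 counts, whereas SLC5A3, which overlaps MRPS6, had 17320. For Arg at 48 h, DESeq2 gave 1 call, no filter on low counts 3, and leaving out single libraries 0 to 15. DESeq2 and no filter gave 128 and 374 lower calls over all genes there. The MRPL median at 48 h was -0.01 with the exonic length correction, with or without the replicate block (-0.0127 and -0.0126), and -0.0845 to -0.0339 without single libraries. For time in the control, scaling to library size alone gave 16 calls and an MRPL median of -0.19, and leaving out single libraries gave 5 to 32 calls. For time with Arg, the exonic length correction gave an MRPL median of -0.13, with or without the block. The GC correction, chosen after seeing the data, gave 3, 0, 30, and 41 calls for Arg at 24 h, Arg at 48 h, time in the control, and time with Arg. Of all genes, 704, 19, 1628, and 2404 were then called lower and 535, 0, 1421, and 2250 higher.

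Libraries of different groups carry the same letters. The deviations of libraries with the same letter correlated between -0.0615 and 0.135, the highest for control B at 24 and 48 h, and were over 0.1 for no other pair. With the letter as a replicate block, 2, 1, 37, and 28 genes were called lower in the same order of comparisons. Of all genes, 545, 141, 2075, and 1853 were then called lower and 379, 43, 1969, and 1926 higher. The MRP gene called at 48 h with the block was MRPS6 (adjusted p = 0.0337 by edgeR). With the block and the exonic length correction, 1 was called at 48 h, where 99 of all genes were called lower and 24 higher. No interaction was called with the block.

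Of the named genes, 14 values reversed, all of genes that were not called. For time in the control, MRPL33 was at -0.00435 with DESeq2, -0.00043 with DESeq2's size factors, -0.0055 with no filter, and without single libraries between -0.12 and 0.13, below 0 without control A at 24 h (-0.0054), control B at 24 h, and control C at 48 h (-0.05). MRPS14 lay between -0.0808 (without control A at 24 h) and 0.11, with -0.0037 without control C at 48 h, and MRPL43 between -0.0181 (without control A at 48 h) and 0.0733, with -0.0057 without control B at 24 h. For time with Arg, MRPL53 lay between -0.20 (without Arg A at 48 h) and 0.24, with -0.13 without Arg A at 24 h, MRPS9 between -0.0165 (without Arg C at 24 h) and 0.12, and MRPS36 between -0.0039 (without Arg A at 48 h) and 0.16. Of the other values of named genes, 1327 kept their direction and their side of the threshold, 63 lost a call, and 18 gained it.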

Other observations

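Of 86 tested cytosolic ribosomal proteins, which translate nuclear mRNAs, 5 fell with Arg at 24 h (median -0.16), 5 with Arg at 48 h (median -0.19), 10 with time in the control (median -0.12), and 29 with time in Arg (median -0.16), and none rose. These are 5.81%, 5.81%, 11.6%, and 33.7% of them, beside 3.84%, 0.117%, 10.04%, and 14.0% of all tested genes. The nuclear-encoded subunits of complex I, which assemble with subunits made by the mitochondrial ribosome, had medians of -0.08 and -0.12 with Arg at 24 and 48 h, where 3 of 37 and 2 of 38 fell. With time, their medians were 0.08 in the control, where 1 rose and none fell, and 0.01 with Arg, where 1 rose and 2 fell.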
